A study of Mus musculus with 6 samples.

Results

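The comparison set whole mouse brain against mouse embryonic stem (ES) cells in libraries made by MARIO, an assay in which RNAs held by the same protein are ligated through a biotin-tagged linker and read as an RNA1-linker-RNA2 construct. It used 3 of the 6 samples of the series, and within them only the lines whose 2 fragments lay on 1 chromosome no more than 2000 bp apart. These lines were 978798 of 1045814 in brain run 1, 1045525 of 1114447 in brain run 2 and 1765496 of 3302146 in ES indirect. The brain came from 1 adult female C57BL/6J mouse, was ground frozen, and was irradiated 3 times with 254 nm ultraviolet light at 400 mJ per cm2. ES indirect was made from undifferentiated E14 cells (strain 129/Ola) grown without feeders in LIF, crosslinked with formaldehyde and EthylGlycol bis (SuccinimidylSuccinate) (EGS), and sonicated to about 1000 nt without the step in which chromatin was pelleted from the ultraviolet-treated lysates. ES-1 and ES-2, ultraviolet-crosslinked libraries of the same E14 cells, were used only as a second view of ES cells.

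The 2 brain samples are labelled technical replicates, and 432392 distinct coordinate pairs occurred in both, which is 78.7% of those in run 1 and 77.8% of those in run 2. They were joined and counted as 1 sample. Each group therefore held 1 library: no test between tissues was possible, and intervals cover counting error only. Tissue, sex (given for the brain alone), mouse strain, crosslinker, fragmentation, chromatin pelleting, rRNA depletion (not stated for brain) and mapping cannot be told apart. In whole tissue, fewer cells of a type and less RNA per cell cannot be told apart either.

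The ends of 1 RNA that lie close together can be ligated to each other, so a pair of fragments within a short distance reports which RNA was captured more than which RNA it met. On the gene's own strand, fragments in exons can come from processed RNA and fragments in introns from precursor RNA that has not been spliced. Fragments on the opposite strand come from neither. Adult brain is known for very long neuronal genes and for messages of synapses and myelin, whereas ES cells divide quickly and carry the messages of the pluripotency network.

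Spliced and unspliced RNA was also sought in short windows of the pairs. Among 226683 introns of protein-coding genes, an exact run of 15 exon bases followed by 15 bases of the next exon was read in 9.92% of the distinct brain pairs (66739 of 672893) but in 0.185% of the ES indirect pairs (1042 of 563470). Windows of the same length across an unspliced exon-intron boundary occurred in 1.46% of brain pairs (9832) and 2.20% of ES indirect pairs (12379). All these shares are over distinct pairs of any kind, of which 54.3% in brain and 37.7% in ES indirect lay in nuclear genes. The brain lines state spliced fragments in several blocks and the ES indirect lines state none (0 of 1765496), so mapping that admits splices moved with this difference. Its part was not tested, and the shares of spliced windows are not read as a contrast in spliced RNA. The windows read most often in 3 of the leading brain genes, given 5′ to 3′ on the RNA with the second exon in capitals (positions NCBIM37, last base of one exon and first base of the next along the chromosome), were:
Slc1a2, chr2:102576240-102577934, plus strand, 23 brain pairs: cactgactgtgtttgGTGTCATCCTGGGAG
Kif5a, chr10:126685335-126699824, minus strand, 24 brain pairs: agcgtcattattgggGGAAAGCCATATGTC
Kif1a, chr1:94939088-94939193, minus strand, 20 brain pairs: acaacacctgttcagCTGTGCCTCCTGAAG

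None of these 3 windows occurred in ES indirect, and the leading ES genes gave no brain pair across the boundaries below. Both sets of genes were chosen as leaders with few or no pairs in the other library, so this followed largely from the choice. The unspliced windows of the ES genes are given in the same way with the exon in capitals and the 2 bases that flank the boundary as position.
Trim71, chr9:114434071-114434072, minus strand, 2 ES indirect pairs: CGCCAGGCTCTCCAGgtcagtcacctatct
Akap12, chr10:5988601-5988602, minus strand, 1 ES indirect pair: ATCCTAAGACGTGAGgtaggtaaacttcct
Igf2bp1, chr11:95824906-95824907, minus strand, 1 ES indirect pair: ctgttctgaatgcagATGGCTCAGCGGAAG
Mid1, chrX:166419814-166419815, plus strand, 15 ES indirect pairs: tgcttctctcgttccAGGTGATCAGGCTCC
Over whole genes, Slc1a2 gave 97 spliced and 10 unspliced windows in brain, and Camk2a 181 and 16. In ES indirect, Esrrb gave 0 spliced and 14 unspliced windows, Jarid2 0 and 12, and Mid1 15 and 38. Unspliced windows were thus read in both libraries. Mid1 spans the pseudoautosomal boundary, where copies share sequence, and is uncertain.

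Brain pairs fell mostly in exons and ES indirect pairs mostly in introns. Of the distinct pairs placed in nuclear genes outside rRNA (365686 in brain, 212473 in ES indirect), 57.7% (95% interval 57.6 to 57.9) in brain had both fragments in exons, against 18.0% (95% interval 17.8 to 18.1) in ES indirect. Intron pairs made up 40.7% and 79.1%, and pairs with 1 fragment of each kind the small remainder. The brain runs differed little, with 41.5% and 41.7% of pairs in introns. Without the brain pairs that have a spliced fragment, the intron share of brain was 50.5%, still below that of ES indirect. ES-1 held 30.7% and ES-2 54.3% in introns, and over all nuclear genes brain lay inside the range of the 3 ES libraries. Protein-coding genes made up 95.7% of these pairs in brain and 95.7% in ES indirect, but 58.3% in ES-1 and 74.3% in ES-2. Over protein-coding genes alone the intron share was 41.9% in brain, 49.6% in ES-1, 68.8% in ES-2 and 80.5% in ES indirect, so that brain lay below all 3 ES libraries. These shares count the gene's own strand, and in ES-1 and ES-2 the opposite strand held nearly as many intron pairs. Intron pairs on the own and the opposite strand numbered 6402 and 5328 in ES-1 and 2461 and 2409 in ES-2. In brain they numbered 146702 and 4294, so the place of brain below ES-1 and ES-2 is not read as less precursor RNA. The 3 ES libraries differed among themselves by more than brain and ES-1 did, and tissue and library method cannot be told apart for the share.

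**Figure D1:**
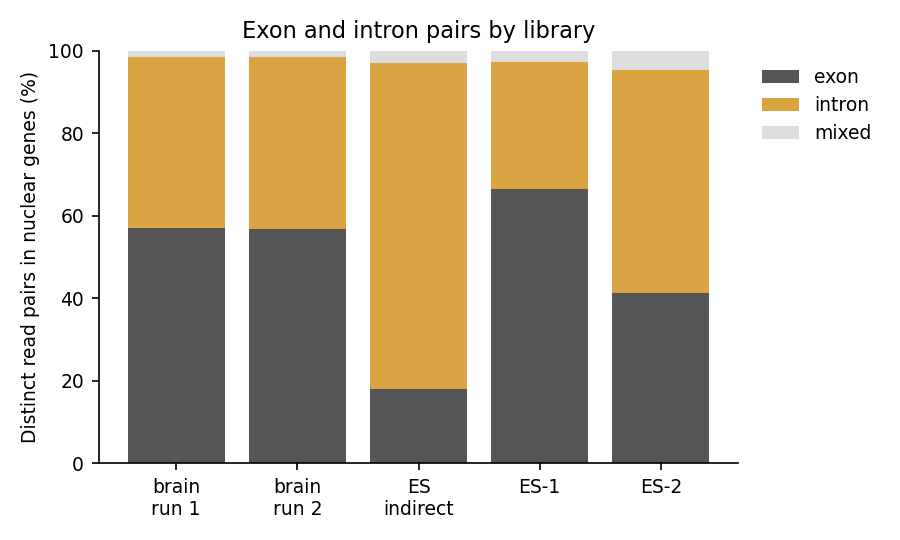
Stacked bars give the percent of distinct read pairs in nuclear genes with both fragments in exons, both in introns, or 1 in each, for both brain runs and the 3 ES libraries. The intron part is 79.1% in ES indirect, against 41.5% and 41.7% in the brain runs, 30.7% in ES-1 and 54.3% in ES-2; over protein-coding genes alone, which are not drawn apart, ES-1 is at 49.6% and the joined brain runs at 41.9%.

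Strand told the libraries apart as well. Over protein-coding genes, pairs on the strand opposite to the gene were 2.84% of all intron pairs in brain, 13.8% in ES indirect, 45.4% in ES-1 and 49.5% in ES-2. In ES-1 and ES-2 both strands of introns were thus read almost equally. In exons the opposite strand took 1.78% in brain, 7.39% in ES indirect, 6.67% in ES-1 and 21.9% in ES-2. There ES-1 lay just below ES indirect. Mitochondrial pairs were 19.5% of the distinct pairs in brain, 0.301% in ES indirect, 7.71% in ES-1 and 0.771% in ES-2. Likewise, mitochondrial rRNA alone was 15.1%, 0.158%, 6.36% and 0.390% in the same order. By the labels rRNA was removed from ES indirect and ES-1 by duplex-specific nuclease, and for brain they do not mention it.

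Counts per gene were scaled to distinct pairs per 1000000 pairs in nuclear genes outside rRNA. A gene was compared when the library with the higher value held 20 or more pairs, and called when the values differed 4-fold or more, with a count of 0 set to 3 counts (8.20 per 1000000 in brain, 14.1 in ES indirect). Of 4879 genes compared, 1337 (27.4%) were called higher in brain and 903 (18.5%) higher in ES indirect. ES indirect held no pair in 195 of the former, and brain held none in 85 of the latter. Protein-coding genes made up 1302 and 877 of the calls. The median gene compared stood at 0.51 on the log2 scale of brain over ES indirect. Scaling on the median ratio of 349 genes with 50 or more pairs in both libraries raised every log2 ratio by 0.75 and gave 1840 and 548 calls, a brain share of 77.1% of the calls against 59.7%. Scaling to pairs in all genes, mitochondrial ones included, lowered it by 0.37 (log2 shift of -0.37) and gave 1076 and 1101 calls, a brain share of 49.4%.

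**Figure D2:**
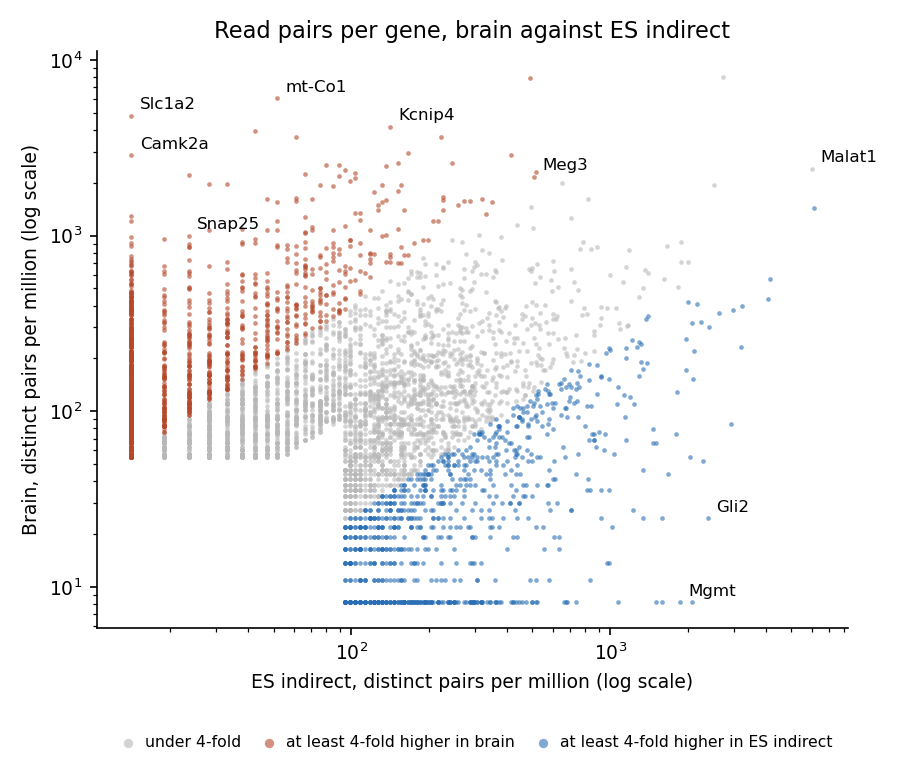
Each point is a gene with 20 or more distinct pairs in the higher library, with ES indirect on the x axis and brain on the y axis, both in distinct pairs per 1000000 on a log scale. Counts under 3 are drawn at 3 counts, which makes the column at 14.1 on the left, where Slc1a2 and Camk2a lie, and the row at 8.20 at the bottom, where Mgmt lies.

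The gene with the highest lower bound of the ratio on the brain side was Slc1a2 (chr2:102498816-102630941), which encodes the main glutamate transporter of astrocytes. It gave 1470 and 1515 distinct pairs in the brain runs, 1761 over both, and 3 in ES indirect, a ratio of 341-fold [117 to 1655], with the 95% interval in brackets here and below. Pairs are given as brain against ES indirect, except for genes called higher in ES indirect and in the 3 paragraphs on that side, where ES indirect comes first. Both brain runs thus stood far above ES indirect, ES-1 (0 pairs) and ES-2 (2 pairs). Of its brain pairs 1631 were in exons and 120 in introns.

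Transporters of small molecules were among the leading brain genes. Slc17a7 loads glutamate into vesicles, and its 269 brain pairs, all in exons, stood against 1 pair in ES indirect, a ratio of 156-fold [27.8 to 6196]. Slc24a2, a sodium, calcium and potassium exchanger, had 443 against 3 pairs and 85.8-fold [29.2 to 418], and Slc6a17, a neuronal amino acid transporter, 219 against 0 and at least 42.4-fold.

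Synaptic and axonal messages made up most of the other leading genes. Camk2a, the calcium-dependent kinase of excitatory synapses, gave 864 and 827 pairs in the runs and 3 in ES indirect, 203-fold [69.3 to 987]. Bsn, which encodes the active zone scaffold Bassoon, had 470 against 1, 273-fold [48.8 to 10809], and Cplx2, a regulator of vesicle fusion, 281 against 0, at least 54.4-fold. Mtap1a, a microtubule protein of mature neurons, had 722 against 6, 69.9-fold [32.0 to 191], and Kif5a, a neuronal kinesin motor, 722 against 7, 59.9-fold [28.9 to 149.6]. Of the brain pairs, 721 of Mtap1a and 705 of Kif5a were in exons, while Camk2a also had 98 and Bsn 74 in introns. With strand ignored, the log2 ratio of Bsn was 5.32 in place of 8.09. Further leading genes were Disp2 (204 against 0, at least 39.5-fold), Tmod2, a neuronal actin-capping protein (195 against 0, at least 37.8-fold), and Eef1a2, the translation elongation factor of neurons and muscle (174 against 0, at least 33.7-fold).

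**Figure D3:**
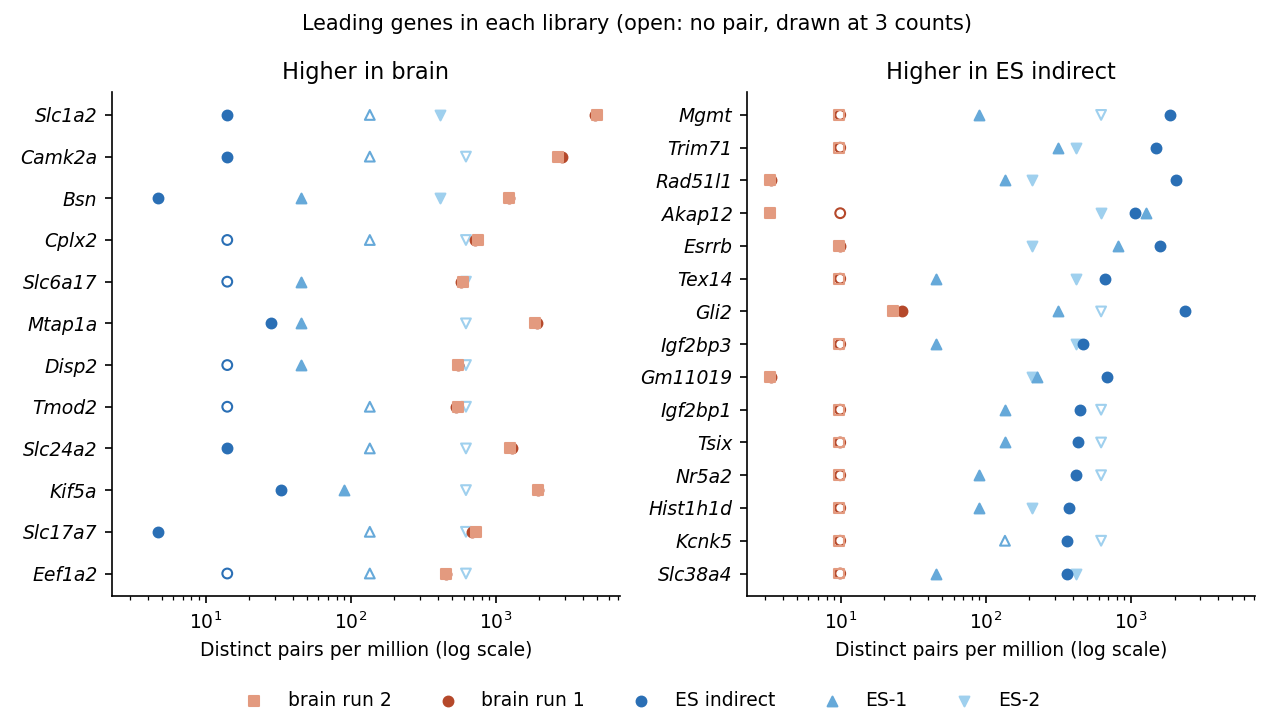
Distinct pairs per 1000000 (log scale) of reported genes among the 15 with the highest lower bound in each direction, for both brain runs, ES indirect, ES-1 and ES-2; open symbols mark libraries with no pair, drawn at the value of 3 counts. Slc1a2 has 1470 and 1515 pairs in the brain runs and Mgmt 395 in ES indirect, and open symbols of ES-2 sit high because that library held 4815 pairs in nuclear genes.

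The gene lists for neurons lay almost wholly on the brain side. All 24 genes for neuronal structure passed 20 pairs, and 21 were called higher in brain and 0 in ES indirect. Over all genes compared the shares were 27.4% and 18.5%. The median log2 ratio was 3.76 beside 0.51 over all genes compared. Together the 24 genes held 18204 and 18139 pairs per 1000000 in the brain runs, 1577 in ES indirect, 904 in ES-1 and 1454 in ES-2. Syt1, the calcium sensor of vesicle release, gave 712 against 28 pairs (14.8-fold [10.1 to 22.4]), and Mtap1b, a microtubule protein of growing neurites, 841 against 110 (4.44-fold [3.64 to 5.47]). The 3 not called were Stmn2 (70 against 34), Uchl1 (63 against 17) and Basp1 (43 against 27). Snap25, a vesicle fusion protein used to check the labels, had 307 and 301 pairs in the runs and 5 in ES indirect, 42.4-fold [18.0 to 131]. These lists were chosen with earlier results of the data known and are not independent evidence of a direction.

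Beside 27.4% of all genes compared, 44 of 50 synapse genes were called higher in brain and none in ES indirect (median 4.01). Glutamate receptor subunits were among them, such as Gria1 (400 against 8 pairs, 29.1-fold [14.6 to 67.8]) and Grin2a (391 against 11, 20.7-fold [11.4 to 41.7]). So were the markers of inhibitory neurons Gad1 (98 against 6, 9.49-fold [4.21 to 26.5]), which makes GABA, and Slc32a1 (55 against 0, at least 10.7-fold), which loads it into vesicles. Nlgn1, a postsynaptic adhesion protein, differed from these in being read through introns (631 of 650 brain pairs), with 26 pairs in ES indirect and 14.5-fold [9.82 to 22.4]. Ppp3ca, a calcineurin catalytic subunit, missed the call at 2.20-fold [1.77 to 2.75], with 105 intron pairs in ES indirect. In exons alone Ppp3ca gave 190 against 1, 34.4-fold [6.10 to 1365].

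Glial markers were present, but unequally. In the astrocyte list 19 of 20 genes passed 20 pairs and 16 were called higher in brain (median 3.25), beside 27.4% of all genes compared. Aqp4, the water channel of astrocyte endfeet, gave 46 against 0 pairs (at least 8.91-fold), Gfap, the intermediate filament, 49 against 0 (at least 9.49-fold), Sparcl1, a secreted matrix protein, 229 against 2 (66.5-fold [18.2 to 553]) and the bicarbonate transporter Slc4a4 194 against 7 (16.1-fold [7.67 to 40.6]). Aldh1l1 was not called, with 18 against 21 pairs. In the oligodendrocyte list 10 of 20 passed and 8 were called, all in brain, including Mbp, a myelin protein (231 against 5, 26.8-fold [11.3 to 83.5]), Cnp, a myelin enzyme (75 against 1, 43.6-fold [7.59 to 1744]), and Mobp (66 against 5, 7.67-fold [3.13 to 24.4]). Over all genes compared 27.4% were called higher in brain. On exon pairs 3 of 8 oligodendrocyte genes were called in brain (median 1.92), near the 31.8% over all genes (median 1.31). Microglia were thinly covered: 2 of 13 genes passed, of which 1 was called, the growth factor receptor Csf1r (22 against 0, at least 4.26-fold).

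Markers of choroid plexus were present, and those of vessels and blood were few. Ttr, the thyroid hormone carrier of choroid plexus, gave 81 against 0 pairs (at least 15.7-fold), and Enpp2 95 against 2 (27.6-fold [7.43 to 231]), while 6 of the 8 genes in that list stayed under 20 pairs. Among 13 endothelial and mural genes 2 passed: Bsg was not called (54 against 30), and Pecam1 was called higher in ES indirect (23 against 4, 9.90-fold [3.38 to 39.4]). The 5 blood genes together gave 1 brain pair, of Alas2, and Hba-a1, Hba-a2 and Hbb-b1 were at 0 in both libraries, where near-identical copies can leave a fragment unplaced. Of 29 genes for regional neuron types 11 passed and 9 were called, all in brain, beside 27.4% of all genes compared. Pde10a, of striatal neurons, was the most covered (349 against 9, 22.5-fold [11.7 to 49.7]), and Reln, a secreted protein of cortical interneurons and cerebellar granule cells, had 102 against 14 (4.23-fold [2.41 to 8.02]). Tcf7l2 (31 against 64) was not called. On exon pairs 2 of 8 regional genes were called in brain (median 1.13), below the 31.8% and 1.31 over all genes compared on exon pairs.

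**Figure D4:**
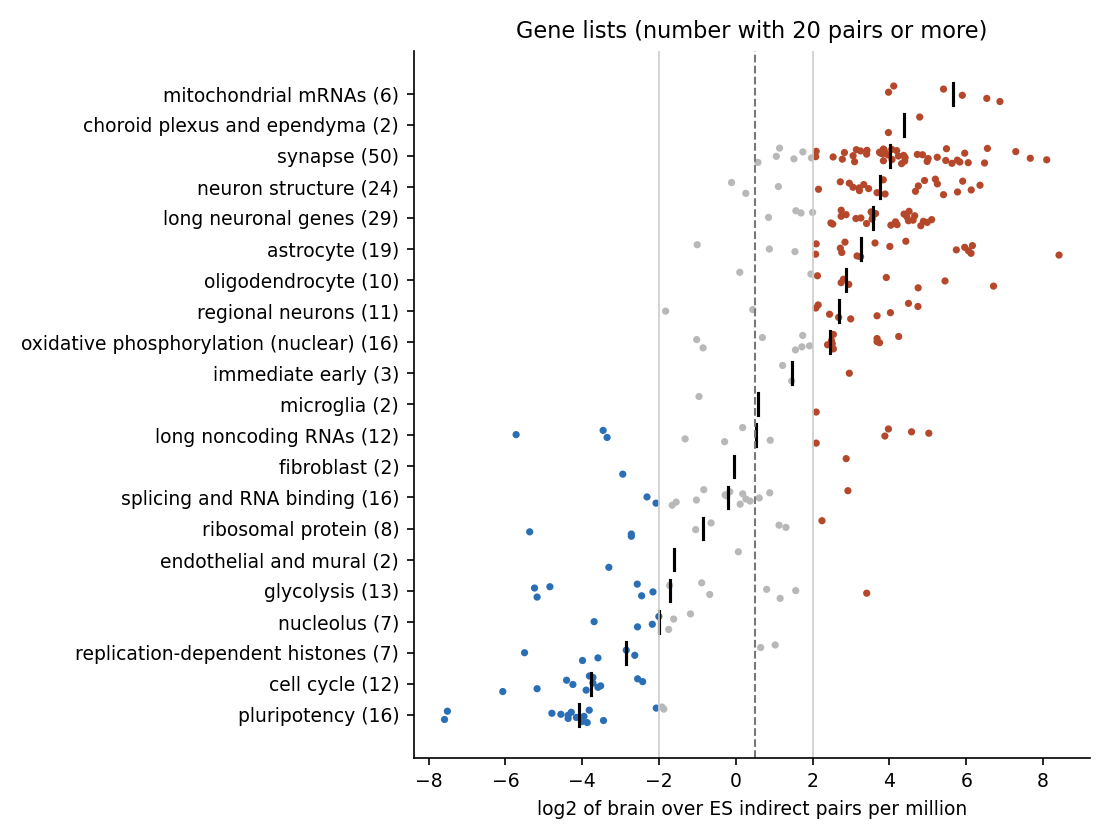
Points give the log2 ratio of brain over ES indirect for each list member with 20 or more pairs in the higher library, coloured where the ratio reached 4-fold; the number of such members follows each name. Black ticks mark list medians, from -4.08 for pluripotency to 5.65 for mitochondrial mRNAs, and the dashed line the median of all genes compared, 0.51.

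Very long neuronal genes were read chiefly through introns. In the list of 30 such genes 29 passed 20 pairs and 25 were called higher in brain, beside 27.4% of all genes compared. The 30 genes held 17555 intron and 1647 exon pairs in brain, against 1040 and 10 in ES indirect. In intron pairs alone, scaled to the intron pairs of each library, 28 of 29 were called higher in brain, with a median of 4.46 beside -0.62 over the 2602 genes compared there, of which 21.7% were called higher in brain and 25.7% higher in ES indirect.

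Kcnip4 (chr5:48780743-49915940), a subunit partner of potassium channels, held the most brain pairs of the list. It gave 1310 and 1341 pairs in the runs, of which 1512 of 1523 over both were in introns, and 30 in ES indirect (29.5-fold [20.6 to 43.9] on all pairs, 56.9-fold [39.7 to 84.6] on intron pairs). Nrxn3, a presynaptic adhesion protein, gave 1327 against 47 (16.4-fold [12.3 to 22.4]). Ptprd, a receptor phosphatase of synapses, had 1074 against 35 (17.8-fold [12.7 to 25.7]), the scaffold gene Dlg2 946 against 52 (10.6-fold [7.99 to 14.3]), and Rbfox1, a neuronal splicing factor, 925 against 17 (31.6-fold [19.6 to 54.5]). The other leaders on intron pairs were Arpp21 (92.5-fold [31.3 to 452]), Pcdh9 (45.8-fold [29.4 to 75.3]), Fam155a (50.5-fold [29.3 to 95.5]), the growth factor Nrg3 (44.1-fold [28.6 to 71.6]) and the synaptic adhesion gene Lrrtm4 (48.5-fold [28.1 to 91.7]). With every line counted in place of distinct pairs, the log2 ratio on all pairs was 7.02 in place of 4.88 for Kcnip4, 7.11 in place of 4.98 for Rbfox1, 6.69 in place of 4.45 for Nrg3 and 6.86 in place of 4.68 for Lrrtm4. On exon pairs Rbfox1 and Pcdh9 had none in ES indirect and stood at a bound under 4-fold, 1.47 and 1.73.

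Beside these values stands the strand of the ES indirect pairs. Kcnip4 gave 32 pairs on the opposite strand in ES indirect against 30 on its own, Ptprd 48 against 35 and Dlg2 50 against 52. Over the 1296 nuclear protein-coding genes called higher in brain, ES indirect held 1299 exon and 6415 intron pairs on the gene's strand and 5085 on the other, while brain held 81676 and 64641 against 1726. Over those called higher in ES indirect, it held 6710 and 61159 against 4645. With strand ignored the log2 ratio of Kcnip4 was 4.04 in place of 4.88. For leading brain genes the same setting gave 7.61 in place of 8.41 for Slc1a2, 6.64 in place of 7.67 for Camk2a, and 5.41 in place of 6.42 for Slc24a2. Others rose, such as Slc6a17 (7.21 in place of 5.41), Tmod2 (7.02 in place of 5.24) and Eef1a2 (6.90 in place of 5.07), whose main values are bounds. Slc17a7 (7.49 in place of 7.29) and Mtap1a (6.34 in place of 6.13) rose less. On intron pairs, protein-coding genes called higher in brain spanned a median of 257 kb, those called higher in ES indirect 76.4 kb, and all compared 119.7 kb. On all pairs the order was not the same, with medians of 47.0, 69.5 and 64.7 kb.

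On the ES side, genes of the pluripotency network and of cell division stood out. In the pluripotency list 16 of 37 genes passed 20 pairs, and 14 were called higher in ES indirect and 0 in brain (median -4.08). Over all genes compared the shares were 18.5% and 27.4%. The whole list held 9060 pairs per 1000000 in ES indirect, 6416 in ES-1, 4777 in ES-2 and 483 and 457 in the brain runs, so that all 3 ES libraries stood above brain. The ES-2 value rests on 23 pairs. In ES-2 the synapse list also held 23 pairs (4777 per 1000000) and the long neuronal genes 46 (9554). ES-2 thus did not set the pluripotency list above these neuronal lists. Esrrb (chr12:87702067-87862578), an orphan nuclear receptor of naive pluripotency, gave 335 pairs in ES indirect, 18 in ES-1, 1 in ES-2 and 3 and 3 in the brain runs, 192-fold [65.2 to 937]. Trim71 (chr9:114420393-114473487), an RNA-binding ubiquitin ligase of early embryos, gave 318 and no brain pair, at least 182-fold. Tet1, which oxidises methylated cytosine, had 209 against 13 (27.7-fold [15.8 to 52.8]) and Jarid2, a cofactor of Polycomb, 385 against 47 (14.1-fold [10.4 to 19.5]). Pou5f1, a core pluripotency factor, was thinly covered, with 17 pairs, all in exons, against 0, and Nanog had 5 against 0. Rif1 (32 against 15) and Slc2a3 (99 against 45) passed but were not called.

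Of 38 cell cycle genes 12 passed, and all 12 were called higher in ES indirect (median -3.77). Over all genes compared 18.5% were called higher in ES indirect, which is also the share beside the histone and nucleolus genes below. Those lists had only 7 genes each that passed. Mki67, a marker of dividing cells, gave 39 against 1 pairs (67.1-fold [11.4 to 2718]), Pola1, the catalytic subunit of DNA polymerase alpha, 98 against 12 (14.1-fold [7.69 to 28.1]), Dnmt1, the maintenance DNA methyltransferase, 65 against 19 (5.89-fold [3.49 to 10.4]) and its partner Uhrf1 37 against 0 (at least 21.2-fold). Among the replication-dependent histone genes, whose messages are made in S phase, 7 of 67 passed and 5 were called, all in ES indirect. Hist1h1d gave 79 against 0 (at least 45.3-fold) and Hist1h1a 37 against 4 (15.9-fold [5.72 to 61.5]), whereas Hist1h4d, with near-identical copies, had 13 against 35. For the nucleolus 7 of 24 genes passed and 4 were called, all in ES indirect, among them Wdr43 (45 against 6, 12.9-fold [5.49 to 37.0]). Ncl, the nucleolin gene, had 43 against 22 and was not called on all pairs, but was on exon pairs (35 against 22, 8.79-fold [5.01 to 15.7]).

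Beyond the lists, the gene with the highest lower bound of the ratio was Mgmt (chr7:144086294-144319870), which encodes a DNA repair methyltransferase. It gave 395 pairs in ES indirect, 393 of them in introns and 10 more on the opposite strand, and none in brain, at least 227-fold. Rad51l1, a recombination gene, had 437 against 1 (752-fold [134 to 29774]), also nearly all in introns (432). ES-1 held 2 pairs of Mgmt and 3 of Rad51l1 among its 22134 pairs in nuclear genes. Akap12, a kinase scaffold, was read through both exons (102) and introns (125), with 28 pairs in ES-1, 3 in ES-2 and 1 in brain (391-fold [69.4 to 15498]). Brain held 14 pairs on the strand opposite to Akap12, and with strand ignored its log2 ratio of brain over ES indirect was -4.52 in place of -8.61. Without brain run 2, which held the only pair, it was bounded at -6.75. The RNA-binding genes Igf2bp1 (94 against 0, at least 53.9-fold) and Igf2bp3 (100 against 0, at least 57.4-fold) encode proteins made mainly before birth. With strand ignored, Igf2bp3 stood at -2.47 in place of -5.84 on the log2 scale. Gli2, an effector of Hedgehog signalling, had 505 against 9 (96.6-fold [50.5 to 212]), and Nr5a2, a nuclear receptor, 89 against 0 (at least 51.1-fold). The remaining leaders were Tex14 (at least 80.9-fold), Gm11019 (249.6-fold [44.1 to 9924]), Kcnk5 (at least 44.2-fold), Slc38a4 (at least 44.2-fold) and Tsix. Among leaders on exon or intron pairs alone, Fzd5, a Wnt receptor, had 41 exon pairs against 0 (at least 75.5-fold), the growth factor Fgf4 37 against 0 (at least 68.2-fold), Mid1 129 against 5 (143-fold [59.5 to 446]), Igfbp2 103 intron pairs against 0 (at least 30.4-fold) and Cradd 176 against 2 (78.0-fold [21.3 to 649]).

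Long noncoding RNAs were called in both directions. Of 20 listed, 16 were in the annotation and 12 passed. Of these, 5 were called higher in brain and 3 in ES indirect, beside 27.4% and 18.5% of all genes compared, and with so few members nothing is read from the difference. Xist, the RNA that coats the inactive X chromosome, gave 66 and 67 pairs in the runs of the female brain and none in ES indirect (at least 14.7-fold), which held 55 on the opposite strand, where Tsix overlaps it. Tsix itself gave 92 in ES indirect and none in brain (at least 52.8-fold). With strand ignored, Xist was no longer called, with a log2 ratio of 0.42 in place of 3.88, and Tsix stood at -4.25 in place of -5.72. Meg3, an imprinted RNA, had 792 against 108 (4.26-fold [3.48 to 5.26]), Snhg11 328 against 8 (23.8-fold [11.9 to 55.6]) and Miat 56 against 1 (32.5-fold [5.61 to 1308]). Rian, from the same imprinted region as Meg3, was not called (177 against 126, 0.816-fold [0.646 to 1.03]). Neat1, the scaffold of paraspeckles, was called higher in ES indirect (95 against 16, 10.2-fold [5.98 to 18.6]), as was 6720401G13Rik (51 against 8, 10.97-fold [5.17 to 26.8]). Malat1, of nuclear speckles, held 881 against 1279 pairs, all in exons. On all pairs it was not called (2.50-fold [2.29 to 2.73] toward ES indirect), and scaled to exon pairs it was (8.02-fold [7.36 to 8.75]).

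Energy metabolism differed by its genes. All 6 mitochondrial mRNAs that passed were called higher in brain, of 13 listed, with mt-Co1 at 1932 and 1985 pairs in the runs against 11 (117-fold [65.5 to 236]) and mt-Cytb at 1434 against 9 (92.6-fold [48.6 to 203]). Another 6 (mt-Atp6, mt-Atp8, mt-Co2, mt-Co3, mt-Nd3 and mt-Nd4l) had no pair in either library, and mt-Nd6 had 1 against 5. Fragments placed with a mapping quality under 10 were left out, so a count of 0 here is not read as absence of the RNA. The 13 together held 18171 and 18576 per 1000000 in the brain runs and 405 in ES indirect, with 3117 for ES-1 and 831 for ES-2. They are scaled to nuclear pairs and were high together with mitochondrial rRNA, described above. Of 75 nuclear genes for oxidative phosphorylation 16 passed and 9 were called, all in brain, beside 27.4% called higher in brain over all genes compared. On exon pairs 3 of 13 were called in brain with a median log2 ratio of 0.86, against 31.8% and 1.31 over all genes, so both were lower in the group than over all genes. Those called on all pairs included Atp5b (150 against 15, 5.81-fold [3.41 to 10.6]), Cox4i1 (63 against 7, 5.23-fold [2.39 to 13.5]) and Sdha (65 against 2, 18.9-fold [5.02 to 159]). In glycolysis 13 of 15 passed, 6 were called higher in ES indirect and 1 in brain, beside 18.5% and 27.4% of all genes compared. On exon pairs 4 of 9 were called in ES indirect and 2 in brain, beside 5.38% and 31.8%. Hk2 (63 against 0, at least 36.1-fold) and Gpi1 (156 against 49, 5.48-fold [3.95 to 7.72]) were on the ES side, while Pfkm, the muscle form of phosphofructokinase, was called in brain (73 against 4, 10.6-fold [3.97 to 40.0]) and Pfkp in ES indirect (205 against 79, 4.47-fold [3.43 to 5.87]). Spliced windows, sought in all distinct pairs whether placed or not, were read for Gpi1 in 75 brain pairs, above the 49 counted. For Eno1 and Ldha, also called higher in ES indirect, they were read in 18 and 13 brain pairs, above the 3 and 9 counted. These calls are thus uncertain, and so are the glycolysis counts above.

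Paired isoforms of the same protein differed in call in some gene families and not in others. Of 50 members 40 passed, with 17 called in brain, 5 in ES indirect and 18 in neither, beside 27.4% and 18.5% of all genes compared. The neuronal enolase Eno2 gave 141 against 1 pairs (81.9-fold [14.5 to 3259]), and the general form Eno1 50 in ES indirect against 3 in brain, called the other way (28.7-fold [9.27 to 144]). Spliced windows of Eno1 were read in 18 brain and 24 ES indirect pairs. Brain thus held more Eno1 pairs than the 3 counted, and this ratio is uncertain. Aldoc, the brain aldolase, had 120 against 1 (69.7-fold [12.3 to 2777]), and Aldoa 147 against 29 (2.95-fold [1.97 to 4.55], not called). Eef1a1, the counterpart of Eef1a2, was not called (37 against 22). Its spliced windows were read in 215 brain and 2 ES indirect pairs, so most of its brain pairs were not counted. Nothing is read from Eef1a1 not being called. The neuronal dynamin Dnm1 was called in brain (320 against 13, 14.3-fold [8.24 to 27.2]) and Dnm2 was not (31 against 33); Kif5a was called and Kif5b was not (57 against 12). Tubb3, of neurons, was called (57 against 4, 8.28-fold [3.06 to 31.4]) and Tubb5 was not (95 against 50). The splicing repressor Ptbp1 was called higher in ES indirect (28 against 9, 5.35-fold [2.46 to 12.9]), and its neural counterpart Ptbp2 was not called (23 against 10). Cdk1, the mitotic kinase, had 26 against 0 (at least 14.9-fold), and Cdk5, of neurons, stayed under 20 pairs (12 against 1). Among chromatin remodelling subunits, Smarcc2 was called in brain (97 against 7, 8.05-fold [3.76 to 20.6]) and Smarcc1 was not (43 against 58); Chd5 was called (96 against 10) and Chd4 was not (54 against 33). Slc2a1, a glucose transporter, was called higher in ES indirect (219 against 21, 17.9-fold [11.5 to 29.6]). Elavl3 (98 against 12) and Elavl1 (55 against 7) were both called in brain, and Camk2d (90 against 13) was called in brain like Camk2a. Neither Elavl4 (36 against 6) nor Elavl2 (48 against 82) was called, and neither were Ppp3ca and Ppp3cb (79 against 13). Differences between the members of a family were not tested.

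Genes of general function were called in both directions. Over all genes compared 27.4% were called higher in brain and 18.5% higher in ES indirect. With so few members, nothing is read from the counts of the lists below. Of 26 genes for splicing and RNA binding 16 passed, with 1 called in brain, Prpf8 (130 against 10, 7.55-fold [3.98 to 16.1]), and 2 in ES indirect. Their median was -0.20, and it turned to 0.55 under median ratio scaling. Srrm2 held 212 against 114 pairs, 1.08-fold [0.857 to 1.37]. Only 8 of 80 ribosomal protein genes passed 20 pairs, with 1 called in brain and 3 in ES indirect, such as Rpl3 (24 against 1, 41.3-fold [6.74 to 1699]). Many of these genes have processed copies in the genome, and fragments that fit several copies were left out. Activity-dependent genes were low, with 3 of 14 passing and Arc, of active synapses, called in brain (40 against 3, 7.75-fold [2.47 to 39.1]). No gene of early differentiation reached 20 pairs, and of 14 fibroblast genes Sparc was called in brain (63 against 5, 7.32-fold [2.98 to 23.3]) and Fn1 in ES indirect (85 against 19, 7.70-fold [4.64 to 13.4]).

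Exons were also compared with exons and introns with introns, each scaled to its own total. On exon pairs 2210 genes were compared, of which 702 (31.8%) were called higher in brain and 119 (5.38%) in ES indirect. Without the brain pairs that have a spliced fragment, which left 140740 brain exon pairs, 1509 genes were compared and the calls were 592 and 110, an alternative chosen after seeing the data. On intron pairs the calls were 564 and 669. ES indirect held only 38216 exon pairs in nuclear genes, so 3 counts were worth 78.5 per 1000000 there, against 14.2 in brain. Of 900 genes compared on both kinds, 173 were called in brain by both and 34 in ES indirect by both. Slc1a2 and Camk2a were in the first group, and Esrrb, Trim71, Akap12 and Tet1 in the second. Only Spin1 and Arf3 were called in opposite directions, named here after their values were seen. Spin1 gave 44 exon and 4 intron pairs in brain against 1 and 36 in ES indirect, and Arf3, a small GTPase of the Golgi, 245 and 7 against 7 and 33. In both, brain was higher through exons and ES indirect through introns. The exon ratios toward brain were 7.96-fold [1.36 to 322] for Spin1 and 6.33-fold [3.03 to 15.9] for Arf3. Intron ratios toward ES indirect were 7.98-fold [2.86 to 30.8] and 4.18-fold [1.82 to 11.2], and every one of these intervals reached under 4-fold.

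**Figure D5:**
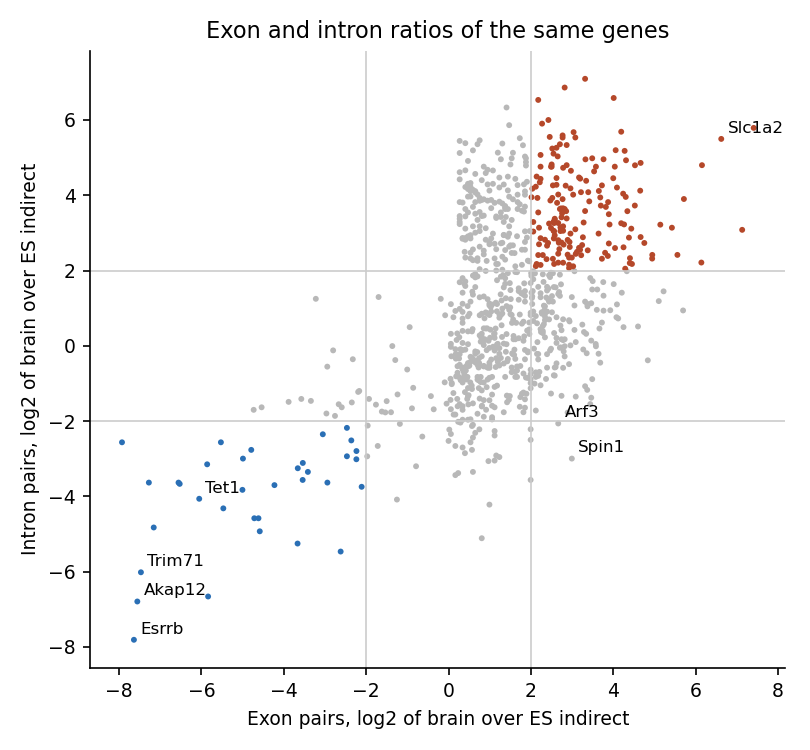
Each of the 900 points is a gene with 20 or more exon pairs and 20 or more intron pairs in the respective higher library, with the log2 ratio of brain over ES indirect on exon pairs (x) and intron pairs (y); grey lines mark 4-fold. The 173 genes called in brain by both fill the upper right, the 34 called in ES indirect by both the lower left, and Spin1 and Arf3 are the only genes past 4-fold in the lower right.

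Most pairs had their fragments in the order that a single unbroken RNA would give, facing each other: 76.7% and 77.4% of lines in the brain runs and 92.0% in ES indirect. The other order, which such a piece cannot give, was found in 18.6% of exon and 19.8% of intron pairs in brain, and in 9.32% and 7.87% in ES indirect. These pairs alone, 69770 in brain and 17202 in ES indirect, allowed 700 genes to be compared, and 235 were called higher in brain and 59 in ES indirect. Of these, 200 and 53 had been called the same way on all pairs and none the opposite way. The pairs in this order are a part of all pairs, so that overlap was largely set in advance and is not a separate check. Among named genes, Slc1a2 gave 371 against 0 (at least 30.5-fold), Kcnip4 346 against 0 (at least 28.4-fold) and Nrxn3 285 against 0 (at least 23.4-fold). On the ES side Mgmt gave 37 against 0 (at least 50.02-fold) and Trim71 25 against 0 (at least 33.8-fold).

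The calls were finally set beside the other ES libraries. Of the 1319 protein-coding and long noncoding genes called higher in brain, 1288 (97.7%) stood below brain in ES-1 and 1163 (88.2%) in ES-2, but 718 and 986 of them had no pair there and were below brain for that alone. Among those with a pair, 570 of 601 (94.8%) were below brain in ES-1 and 177 of 333 (53.2%) in ES-2, where 1 pair is worth 45.2 and 208 per 1000000. The call had already set their brain values high, so nothing is read from these shares. Of the 897 called higher in ES indirect, 573 (63.9%) stood above brain in ES-1 and 312 (34.8%) in ES-2, with 237 and 576 at 0, which left 573 of 660 (86.8%) and 312 of 321 (97.2%) of the genes with a pair. These genes were low in brain by the call, and 1 pair is worth 45.2 per 1000000 in ES-1 and 208 in ES-2. A gene with a pair there stood above brain largely for that alone, and nothing is read from the shares among genes with a pair. Esrrb, Trim71 and Akap12 had pairs in both, and Mgmt and Gli2 in ES-1 but not in ES-2. ES-1 held 22134 and ES-2 4815 pairs in nuclear genes, and a gene at 0 there was below what these depths could show. With ES-1 in place of ES indirect 501 genes were called higher in brain and 80 higher in ES-1, of which 330 and 10 had been called the same way against ES indirect and 2 and 5 the opposite way. With ES-2 the calls were 51 and 23, of which 42 and 4 were shared and 0 and 3 had been called the opposite way.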

How the data were processed

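The deposited files hold 1 line per read pair with the position, strand, sequence and annotation of RNA1 and RNA2. They hold no measured value and no normalization; the unit is other, and the authors' steps were removal of PCR duplicates, splitting at the linker and mapping (TopHat2 2.1.1 and NCBIM37 per the labels). No source used here says which files TopHat2 made or with what settings. The brain positions are not NCBIM37: of 327713 brain pairs placed by sequence, 99.0% started inside the GRCm38 span of their gene in RefSeq (GRCm38.p6) and 21.7% inside its NCBIM37 span. Both fragments of each distinct pair were therefore placed again on NCBIM37 by sequence (minimap2 2.31, preset sr, mapping quality of at least 10), which succeeded for 81.2% of brain and 74.2% of ES indirect pairs.

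A pair was counted for a GENCODE vM1 gene when the middle of both fragments lay in it on the strand of RNA1; a fragment with at least as many exon as other bases was exonic. Where genes overlapped on 1 strand, a pair was counted only if it was exonic in exactly 1 of them. Identical coordinates were counted once. Totals were 365686 pairs in brain (302243 and 306306 per run), 212473 in ES indirect, 22134 in ES-1 and 4815 in ES-2. Ratios carry exact 95% conditional binomial intervals and shares Clopper-Pearson intervals, covering counting error only. The authors removed PCR copies by position and random barcode; the deposited lines carry no barcode, and lines with the same coordinates were still counted once here. A count of 0 was set to 3 counts for the ratio, a call had to follow the observed values, and no ratio was given where both libraries were at or under 3 counts or the 3 counts exceeded the other library. The ratio, interval and call were tested on simulated data. Named genes were, in each direction, the 15 with the highest lower bound on all pairs and 8 each on exon and intron pairs, the 4 most covered members of each list and any called against it, isoform pairs and 4 label checks; a few further list members were added for illustration after their values were seen. The members and lists were chosen with earlier results of these data known. Fibroblasts were not used here, and some genes that the rule names are not reported here. Counting used Python 3.11.15, pandas 2.3.3 and scipy 1.17.1.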

Additional observations from a re-analysis of the deposited data

How the results depend on the processing

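No paired analysis was possible because both brain samples are runs of 1 library and ES indirect has 1 library. No leading gene or called label check changed direction under any alternative that gave a ratio, but sizes moved. With every line counted the log2 ratio of Slc1a2 was 10.46 in place of 8.41 and that of Slc24a2 8.40 in place of 6.42. With strand ignored Xist, on exon pairs Rbfox1 and Pcdh9, on intron pairs Kif5a, Eef1a2, Tmod2, Disp2 and Cplx2, and against ES-1 Tmod2 and Eef1a2 fell under 4-fold, as did others against ES-2 and on the order that 1 unbroken RNA cannot give, where many values are bounds. Against ES-1 12 and against ES-2 23 of these genes gave none at those depths. Calls higher in brain and in ES indirect (main 1337 and 903) numbered 2303 and 2205 with every line counted, 501 and 80 with ES-1 as the ES library, 51 and 23 with ES-2, 702 and 119 on exon pairs, 782 and 409 at 50 or more pairs, 2041 and 1507 at 2-fold, 697 and 454 at 8-fold, and 235 and 59 on the order that 1 unbroken RNA cannot give. Median ratio scaling gave 1840 and 548, intron pairs 564 and 669, and a minimum of 5 pairs 1723 and 2072. On intron pairs and at this lower minimum the larger number was thus on the ES indirect side. The intron share of brain was 44.9% with every line counted, 42.9% at a mapping quality of 30, 39.5% with the splicing preset, 40.6% with strand ignored, 42.0% at gaps up to 500 bp, 42.2% in the other order, and 41.5% to 41.7% without either run. It was 50.5% without spliced fragments, an alternative chosen after seeing the data. That of ES indirect was 76.4% with every line counted, 79.3% at a mapping quality of 30, 76.7% with strand ignored, 77.5% at the stated positions, 76.8% in the other order, and 30.7% and 54.3% in ES-1 and ES-2. The share of lines within the distance was 91.5%, 91.8% and 51.5% in brain run 1, run 2 and ES indirect at 500 bp, and 91.2%, 91.3% and 34.0% over distinct coordinates. Causes of these shifts were not tested. Depth limits ES-1 and ES-2 most, and exon pairs in ES indirect.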
